A study of Homo sapiens with 6 samples.

Results

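The 51 genes described here are the interferon receptor chains, the transcription factors that act downstream, the RNA sensors and a set of interferon-stimulated effectors. They were chosen by name, with earlier results of these data known, and each was read from a probeset annotated with that gene alone. Of the 51, 49 were measured among 18404 genes, while GBP1 and STAT2 were not analysed here. The cells were PC-3, an androgen-independent human prostate carcinoma line. Menthol in its ethanol carrier was applied for 3 arrays, and the carrier without menthol for the other 3, with 0.1% ethanol and 10% fetal bovine serum in both groups. Menthol, the cooling compound of mint, activates the cold-sensing channel TRPM8. Neither the dose nor the duration is stated in the sources used here. All 6 arrays come from a single cell line, which limits the groups as a model of prostate tumours, and nothing in the labels ties replicates to separate cultures. The p-values therefore cover the spread between these arrays alone, which may be technical.

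Interferons are secreted proteins that warn cells of infection. Type I interferons bind the receptor chains IFNAR1 and IFNAR2, and interferon gamma binds IFNGR1 and IFNGR2. The kinases JAK1, TYK2 and JAK2 on these chains activate transcription factors that work with IRF9 and switch on interferon-stimulated genes through a DNA element called the interferon-stimulated response element. Cells also detect foreign RNA directly: the helicases RIG-I (gene RIGI) and MDA5 (gene IFIH1) signal through MAVS and TBK1 to IRF3, which can induce some of the same target genes with or without interferon.

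Values are log2 of the deposited intensities, and array medians lay between 47.4 and 49.1 intensity units before the log. The epithelial markers EPCAM, KRT8, KRT18, KRT19 and CDH1 lay between percentiles 87.6 and 99.03 of all genes. The leukocyte marker PTPRC, the dimmest of those measured, lay at percentile 2.96. Other leukocyte markers lay higher: LYZ at 3.96, CD3E at 15.7, ITGAM at 21.5, CD79A at 27.2, CD14 at 29.1, NKG7 at 47.2 and CD68 at 87.2. Of 8 measured leukocyte markers 1 passed the test, CD68, a lysosomal gene not restricted to leukocytes, at 0.29 ± 0.07 (SE). All 5 epithelial markers rose, by 0.56 to 0.97. Of the other markers, 0 of 3 plasmacytoid dendritic cell markers and 0 of 2 luminal markers passed, and the part of these markers in the results below was not tested. In RNA from whole cultures, fewer cells of a kind and less RNA per cell cannot be told apart.

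The 49 measured genes moved in both directions with menthol. They include 4 receptor chains, of which 0 were higher and 2 (IFNAR2 and IFNGR2) were lower. In limma with Benjamini-Hochberg adjustment over all 18404 genes at a threshold of 0.05, 19 of the 49 genes were higher (38.8%, against 14.6% of all genes) and 10 were lower (20.4%, against 14.5%). At least 1.5-fold higher were 8 genes, IFIT2, SAMD9L, SAMD9, GBP3, IFIH1, IFIT3, USP18 and HERC6 (16.3%, against 2.99%). At least 1.5-fold lower were 3 genes, IFITM1, LGALS3BP and IFI44L (6.12%, against 2.62%). The list was chosen with earlier results of these data known, so these shares describe it and are not independent evidence. The median log2 fold change of the 49 genes was 0.04, close to the 0.03 of all genes, while the median absolute change was 0.29 against 0.16. In 33 genes (20 higher and 13 lower, 67.3%) the 3 menthol and the 3 vehicle values did not overlap, against 45.3% of all genes. Without vehicle replicate 2 or vehicle replicate 3, 6 of the 49 genes passed as lower in place of 10, and of all genes 10.7% and 10.1% did.

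Most of these genes have a middling signal, and the share of calls depends on signal. With genes split by brightness into 4 equal bins, 24 of the 49 lay in bin 3, the second brightest, where 17.5% of all genes were higher and 20.2% lower, and 13 of these 24 were higher and 7 lower. In the dimmest bin 2 of 7 were higher and 0 lower, against 10.3% and 1.91% of all genes there. In bin 2, 4 of 12 were higher and 2 lower, against 13.4% and 9.0%. In the brightest bin 0 of 6 were higher and 1 lower, against 17.2% and 26.9%.

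**Figure D1:**
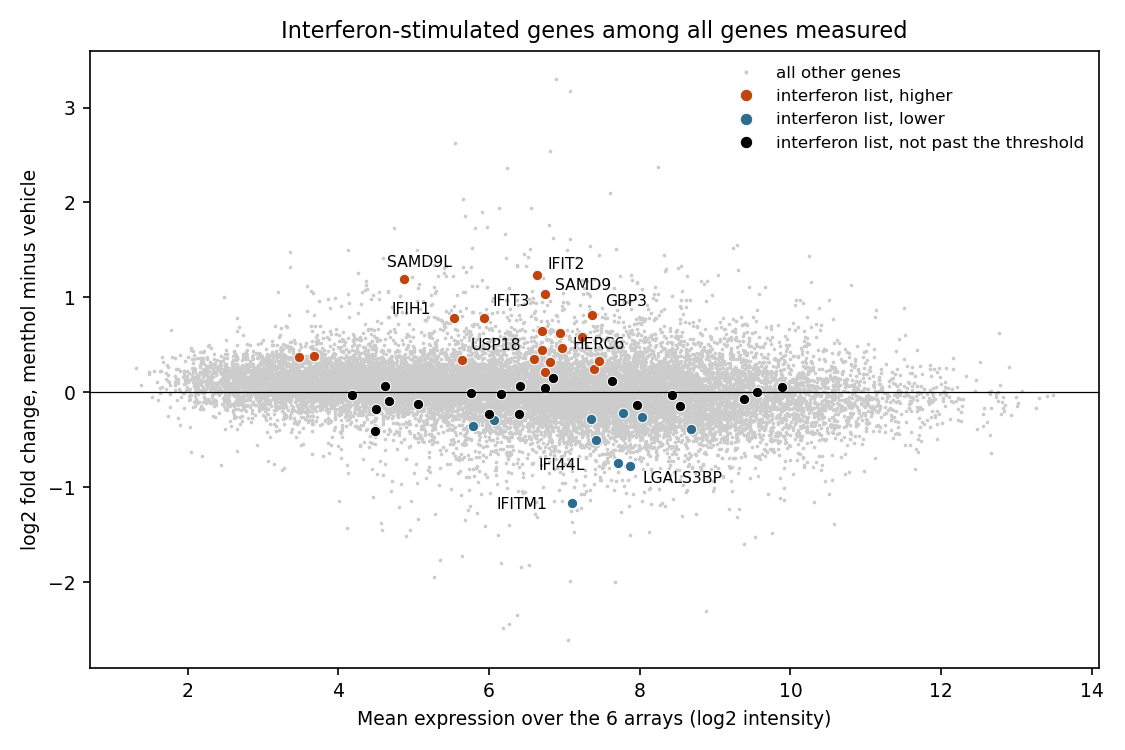
Log2 fold change, menthol minus vehicle, against mean expression over the 6 arrays (log2 intensity), for the 49 measured genes of the list, receptor chains included (coloured by call), and all other genes (grey). The 8 increases and 3 decreases of at least 1.5-fold carry gene names, and they lie mostly in the middle of the brightness range.

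The promoters of 2 genes that rose and 2 that fell by at least 1.5-fold are shown, picked among those that hold the same DNA element. RefSeq promoters (GRCh38.p14, 250 bases before to 50 after each start, printed 5′ to 3′ on the gene's strand) were found for 41 of the 51 genes. Capitals mark the core of the interferon-stimulated response element, searched on both strands as GAAA, then NN (any bases), then GAAA, so that it also appears as its reverse complement. IFIT3 (chr10:89327747-89328046, plus strand) and SAMD9 (chr7:93117930-93118229, minus strand) rose with menthol, while IFITM1 (chr11:313790-314089, plus strand) and IFI44L (chr1:78620198-78620497, plus strand) fell.
IFIT3: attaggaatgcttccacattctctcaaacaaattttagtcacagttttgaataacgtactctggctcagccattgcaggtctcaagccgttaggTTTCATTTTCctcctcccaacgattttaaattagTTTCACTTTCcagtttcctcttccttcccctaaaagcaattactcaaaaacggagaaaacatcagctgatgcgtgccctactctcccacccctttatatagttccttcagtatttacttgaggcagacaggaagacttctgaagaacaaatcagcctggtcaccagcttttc
SAMD9: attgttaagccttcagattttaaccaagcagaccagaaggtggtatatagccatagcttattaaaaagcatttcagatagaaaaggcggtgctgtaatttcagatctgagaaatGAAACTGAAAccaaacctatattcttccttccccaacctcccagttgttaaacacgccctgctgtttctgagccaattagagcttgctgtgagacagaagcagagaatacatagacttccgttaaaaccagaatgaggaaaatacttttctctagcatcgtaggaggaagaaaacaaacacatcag
IFITM1: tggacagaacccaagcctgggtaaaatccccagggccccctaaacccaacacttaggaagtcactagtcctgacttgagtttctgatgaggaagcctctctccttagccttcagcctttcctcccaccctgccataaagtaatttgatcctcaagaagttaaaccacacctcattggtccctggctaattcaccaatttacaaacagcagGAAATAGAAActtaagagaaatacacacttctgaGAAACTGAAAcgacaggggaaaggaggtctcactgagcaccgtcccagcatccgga
IFI44L: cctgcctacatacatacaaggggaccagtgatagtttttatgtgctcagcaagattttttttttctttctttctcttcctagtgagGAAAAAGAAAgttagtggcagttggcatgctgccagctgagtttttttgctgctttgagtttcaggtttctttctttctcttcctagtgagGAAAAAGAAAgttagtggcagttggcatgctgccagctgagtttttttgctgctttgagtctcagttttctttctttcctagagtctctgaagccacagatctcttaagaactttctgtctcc

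The IFIT3 promoter holds 2 matches, 156 and 122 bases before the start, and that of SAMD9 1 match, 136 bases before it. IFITM1 has 2 matches close to the start, 40 and 6 bases before it. In IFI44L the 2 matches, 164 and 73 bases before the start, lie in copies of the same 85-base stretch repeated 91 bases apart.

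Shorter windows with 5 bases on each side show the element in other genes changed at least 1.5-fold. GBP3 and IFIH1 rose and LGALS3BP fell, and the matches shown lie at chr1:89022855-89022864 in GBP3 (its first base is the third of the transcript), chr2:162318696-162318705 in IFIH1 (21 bases before it) and chr17:78979972-78979981 in LGALS3BP (58 bases before it), all on the minus strand. IFIH1 holds 2 more matches, 159 and 153 bases before the start, which overlap each other.
GBP3: agtacTTTCAGTTTCattag
IFIH1: gaatcGAAACAGAAAccaaa
LGALS3BP: ttctgGAAATCGAAAgtaga

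The element was present in 24 of the 41 promoters (58.5%), against 3.65% of 27305 promoters of the same length. Among genes that rose with menthol a match was present in 10 of 14 promoters found, among those that fell in 7 of 8, and among those that did not pass in 6 of 17. No promoter was found for IFIT2, USP18, OAS2, IRF7 and TRIM22, which rose, or for IFNAR2 and OASL, which fell. DHX58, MX2 and GBP2, which did not pass, also had none. Similar letters with other spacing were not counted. OAS1, RSAD2 and XAF1, which did not pass, and RIGI, which rose, hold GAAACGAAA. The 17 also include the receptor genes IFNAR1 and IFNGR1, so the shares depend on the search letters and on the make-up of the list. HERC6, SAMD9L, RIGI and IFI35 rose, and IFNGR2 fell, without a match to these letters in this window. Over all 433 measured genes with a match, 15.9% were higher and 15.01% lower, beside 14.6% and 14.5% of all genes, and their median log2 fold change was 0.06, against 0.03 for genes without one. The gamma-activated site, searched as TTCNNNGAA, which reads the same on both strands, was present in 11 of the 41 promoters (26.8%), against 7.88% of all promoters. It was found in 4 of 14 promoters of genes that rose, 2 of 8 of those that fell and 5 of 17 of those that did not pass. Of the 41 matches to the response element 5 overlapped a gamma-activated site, in 4 genes.

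No interferon ligand passed the test. Of 8 measured ligand genes 0 passed the limma test, against 29.1% of all genes, and 0 had an unadjusted p under 0.05. IFNB1, IFNE, IFNK, IFNW1 and IFNG lay in the dimmest bin, where 10.3% of all genes were higher and 1.91% lower. So few genes cannot be told from that share. The interferon lambda genes IFNL1, IFNL2 and IFNL3 lay at percentiles 31.4, 33.5 and 63.8. IFNB1, the interferon made first after RNA sensing, had 2.67, 2.63 and 2.19 log2 intensity with menthol and 2.72, 2.55 and 2.32 with vehicle. These values overlapped, at the 2.10th percentile of genes (log2 fold change -0.04 ± 0.15, 95% interval -0.38 to 0.31, adjusted p = 0.885). IFNG, the gene of interferon gamma, lay at the 2.50th percentile with a change of 0.02 ± 0.10. The smallest p among the ligands belonged to IFNW1 (0.23 ± 0.14, adjusted p = 0.277) and IFNE (0.09 ± 0.08, adjusted p = 0.453), both at or below percentile 12.2 of brightness.

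Receptor chains and their kinases were lower or did not pass. IFNAR2, the ligand-binding chain that also holds the STAT docking sites of the type I receptor, had 7.27, 6.97 and 7.24 log2 intensity with menthol, against 7.56, 7.67 and 7.76 with vehicle. It fell by 0.51 ± 0.10 (adjusted p = 0.00689), with no overlap between the groups. IFNGR2, the signalling chain of the interferon gamma receptor, had 8.48, 8.49 and 8.5 with menthol and 8.87, 8.85 and 8.92 with vehicle. It fell by 0.39 ± 0.06 (adjusted p = 0.00219), again without overlap. Their partners did not pass: IFNAR1 was at -0.07 ± 0.06 (95% interval -0.22 to 0.08) and IFNGR1 at -0.15 ± 0.09 (-0.36 to 0.06), with overlapping values in both. Without menthol replicate 3, whose IFNGR1 value of 8.66 stood above the other 2 menthol arrays at 8.39 and 8.34, IFNGR1 passed as lower at -0.25 (adjusted p = 0.0329).

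**Figure D2:**
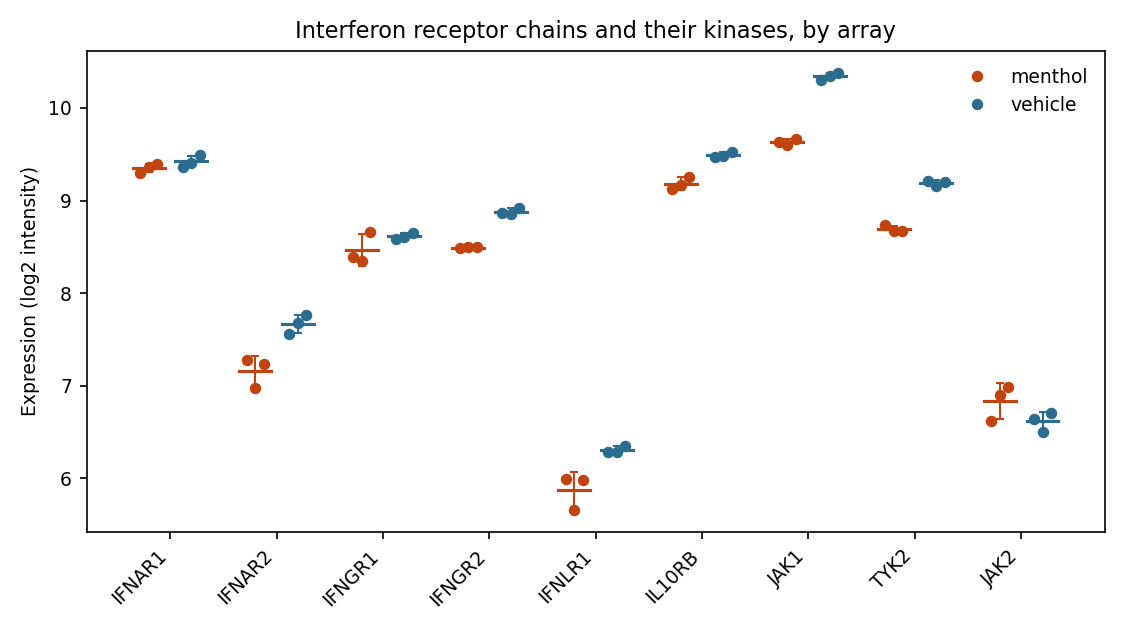
Expression of interferon receptor chains and kinases (log2 intensity) on each of the 3 menthol and 3 vehicle arrays; points are arrays, lines are group means and bars are the SD. Menthol arrays lie below vehicle arrays without overlap for IFNAR2, IFNGR2, IFNLR1, IL10RB, JAK1 and TYK2, and overlap them for IFNAR1, IFNGR1 and JAK2.

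Of 11 further genes of receptor signalling and its brakes, 4 were lower (36.4%, against 14.5% of all genes) and 1 higher (9.09%, against 14.6%). JAK1, the kinase shared by all interferon receptors, had 9.64, 9.60 and 9.66 log2 intensity with menthol, against 10.30, 10.35 and 10.38 with vehicle, a decrease of 1.64-fold (-0.71 ± 0.06, adjusted p = 0.000195). TYK2, the kinase bound to IFNAR1, fell by 0.50 ± 0.06 (adjusted p = 0.000807). The receptor chains of interferon lambda followed, IFNLR1 at -0.43 ± 0.10 (adjusted p = 0.0143; 0.05 without vehicle replicate 3, which ended the call) and IL10RB at -0.31 ± 0.06 (adjusted p = 0.00884). JAK1, TYK2 and IL10RB lay in the brightest bin, where 26.9% of all genes were lower, and IFNLR1 in bin 2, where 9.0% were. The 1 increase was that of PTPN2, a phosphatase that dampens JAK and STAT signalling, at 0.22 ± 0.06. It was named after its values were seen, and without menthol replicate 2 or 3 or vehicle replicate 1 or 2 the count of increases was 0. JAK2, also named after its values were seen, was at 0.22 ± 0.11 (adjusted p = 0.166).

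Among the transcription factors, IRF7, which drives type I interferon genes, was the only one of 3 measured to pass. Its values were 6.89, 6.82 and 6.84 with menthol and 6.64, 6.69 and 6.59 with vehicle, a difference of 0.21 ± 0.06 (adjusted p = 0.0338). The IRF7 call ended with any 1 of the 6 arrays left out (adjusted p = 0.0584 to 0.106). IRF9, a DNA-binding factor of the type I interferon response, was at 0.15 ± 0.07 (adjusted p = 0.134), with groups that did not overlap. IRF1, an early target of interferon gamma, was at 0.07 ± 0.11 (adjusted p = 0.66), and its sign turned without menthol replicate 2 (-0.01).

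The 2 helicases that sense foreign RNA were higher. IFIH1, encoding MDA5, which binds long double-stranded RNA, had 5.69, 6.31 and 5.77 log2 intensity with menthol, against 5.09, 5.07 and 5.25 with vehicle. Menthol replicate 2 stood above the other menthol arrays, and all 3 lay above vehicle (0.78 ± 0.16, 1.72-fold, adjusted p = 0.0081). With each array left out in turn the IFIH1 change was 0.59 to 0.90, and the call held throughout. RIGI, encoding RIG-I, which binds RNA ends with a triphosphate, had 7.15, 7.21 and 7.26 with menthol and 6.89, 6.68 and 6.65 with vehicle (0.47 ± 0.08, adjusted p = 0.00439). DHX58, encoding LGP2, a relative that lacks the signalling domain, was not higher: its 3 menthol values of 4.46, 4.42 and 4.36 lay below the vehicle values of 4.60, 4.61 and 4.56, at -0.18 ± 0.06 (adjusted p = 0.0571). DHX58 passed as lower under quantile and cyclic loess normalization, with equal array medians and with array weights (lowest adjusted p = 0.00874).

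Enzymes that act on RNA were divided. The oligoadenylate synthetases are switched on by double-stranded RNA and make a second messenger. OAS2 rose, with 6.87, 6.89 and 7.01 with menthol and 6.50, 6.46 and 6.48 with vehicle (0.44 ± 0.06, adjusted p = 0.00208). OAS3 fell by 0.28 ± 0.08 (adjusted p = 0.0312), and with each array left out its adjusted p was 0.0263 to 0.0928, the call ending in every case but that of vehicle replicate 1. OASL, a family member without synthetase activity that aids RIG-I, fell by 0.35 ± 0.07 (adjusted p = 0.00628), and OAS1 was at 0.04 ± 0.11 with overlapping groups. The RNA exonuclease gene ISG20 fell by 0.29 ± 0.07 (adjusted p = 0.0183), a call that ended without vehicle replicate 2 or 3 (adjusted p = 0.0285 to 0.0641 over the 6 omissions).

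EIF2AK2, encoding the kinase PKR that stops translation on double-stranded RNA, and ADAR, which edits such RNA, were bright and did not pass. EIF2AK2 was at 0.06 ± 0.07 (95% interval -0.09 to 0.21) and ADAR at 0.0047 ± 0.06 (-0.12 to 0.13). The helicase gene DDX60 was at -0.0029 ± 0.09 (-0.20 to 0.20). The signs of ADAR, DDX60 and OAS1 turned under other scalings or with 1 array left out.

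Of 18 adaptors and kinases of the sensing pathways, 4 were higher (22.2%, against 14.6% of all genes) and 3 lower (16.7%, near the 14.5% of all genes), all by less than 1.5-fold. The ubiquitin ligase gene TRAF6 rose by 0.41 ± 0.07, the kinase gene TBK1 by 0.38 ± 0.08 and TLR3, a receptor for double-stranded RNA in endosomes, by 0.32 ± 0.06. TLR3 lay at percentile 21.8 of brightness, in the dimmest bin, where the median change of all genes was 0.10. STING1, the adaptor of cytosolic DNA sensing, had 7.18, 7.19 and 7.25 with menthol, against 7.77, 7.69 and 7.69 with vehicle, and fell by 0.51 ± 0.06 (adjusted p = 0.000875). The adaptor MAVS and the factor IRF3, named after their values were seen, were at -0.22 ± 0.07 and -0.19 ± 0.06 (adjusted p = 0.0432 and 0.0478). Without menthol replicate 2 or vehicle replicate 1, 2 or 3, only 1 of these 18 genes passed as lower.

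**Figure D3:**
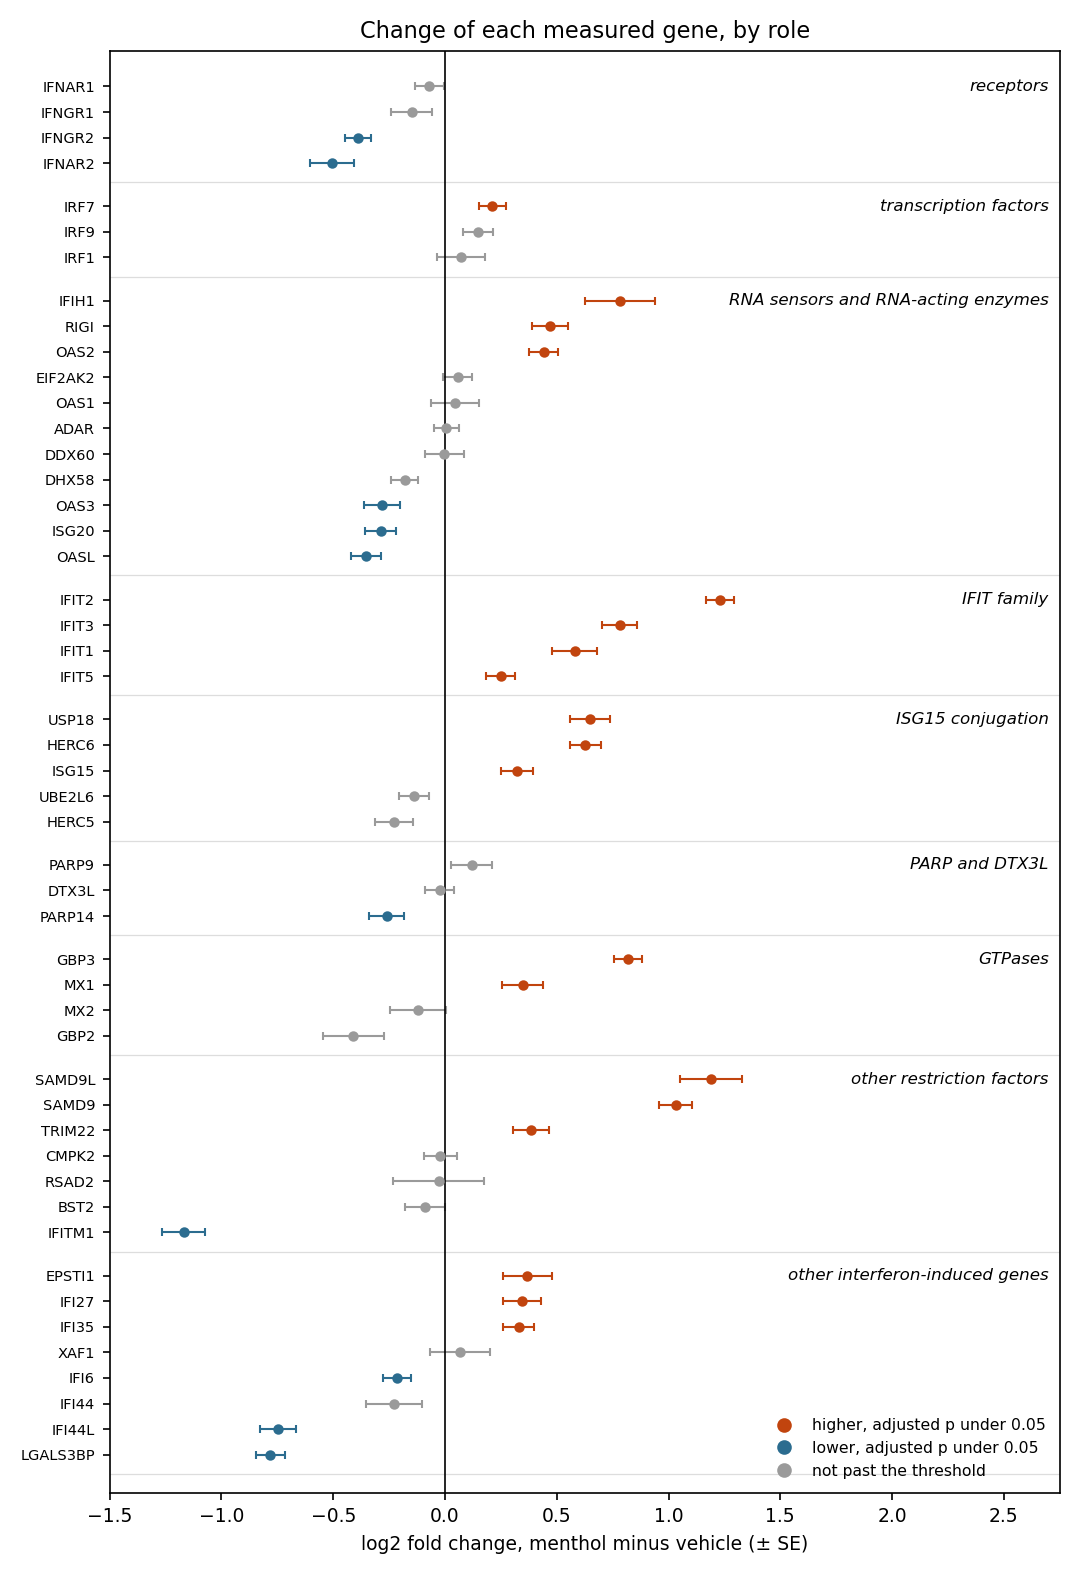
Log2 fold change, menthol minus vehicle, of the 49 measured genes, grouped by role, with the moderated SE as bars and the call as colour. The IFIT family lies wholly to the right of 0, receptor chains to the left, and most other groups hold genes on both sides.

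The IFIT family, RNA-binding proteins that block translation of foreign RNA, was higher in all 4 members. IFIT2 had the largest increase among the 49 genes and the 57th largest of all 18404, with 7.19, 7.30 and 7.27 log2 intensity with menthol, against 6.02, 5.98 and 6.06 with vehicle. The difference was 1.23 ± 0.06, or 2.35-fold (adjusted p = 3.84e-05), many times the spread within either group (SD 0.06 and 0.04). IFIT3, which stabilises IFIT1, had 6.23, 6.36 and 6.36 with menthol and 5.42, 5.63 and 5.57 with vehicle (0.78 ± 0.08, adjusted p = 0.000405). IFIT1, which binds RNA caps that lack a methyl group, rose by 0.58 ± 0.10 (adjusted p = 0.00451), just short of 1.5-fold. IFIT5 was at 0.25 ± 0.07 (adjusted p = 0.0262), and this call ended without menthol replicate 2 or 3 or vehicle replicate 2 or 3 (adjusted p = 0.0211 to 0.0853 over the 6 omissions).

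ISG15 is a ubiquitin-like protein that is joined to other proteins by UBE2L6 and HERC5 and removed by USP18. USP18, which also binds IFNAR2 and curbs its signalling, had 6.91, 6.98 and 7.17 log2 intensity with menthol, against 6.48, 6.26 and 6.37 with vehicle (0.65 ± 0.09, 1.57-fold, adjusted p = 0.00174). HERC6, a relative of HERC5, had 7.19, 7.36 and 7.21 with menthol, against 6.65, 6.60 and 6.63 with vehicle (0.63 ± 0.07, 1.54-fold, adjusted p = 0.000628). ISG15 itself rose by less, 0.32 ± 0.07 (adjusted p = 0.0123). The conjugating enzymes did not pass and had negative values, UBE2L6 at -0.14 ± 0.07 (adjusted p = 0.16) and HERC5 at -0.23 ± 0.08 (adjusted p = 0.0778).

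SAMD9 and SAMD9L, which restrict poxviruses and cell growth, rose together. SAMD9 had 7.24, 7.18 and 7.35 with menthol, against 6.24, 6.14 and 6.30 with vehicle (1.03 ± 0.07, 2.04-fold, adjusted p = 0.000119). SAMD9L had 5.32, 5.44 and 5.63 with menthol, against 4.0, 4.28 and 4.53 with vehicle (1.19 ± 0.14, 2.28-fold, adjusted p = 0.000806). The vehicle values of SAMD9L were spread more widely than those of SAMD9, and neither gene's groups overlapped. TRIM22, an antiviral ubiquitin ligase gene, rose by 0.39 ± 0.08 (adjusted p = 0.0106) at the 11.9th percentile of brightness.

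**Figure D4:**
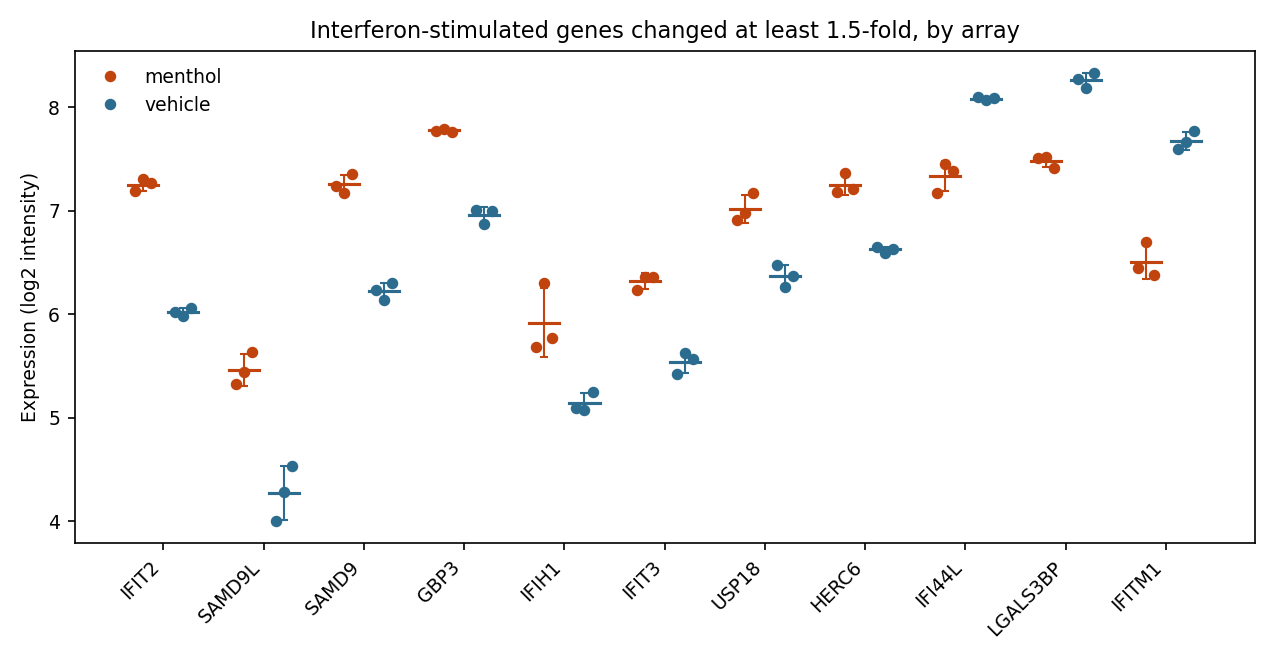
Expression (log2 intensity) of the 11 genes changed at least 1.5-fold, on each of the 3 menthol and 3 vehicle arrays; points are arrays, lines group means and bars the SD. In each gene the groups are separate: menthol lies above vehicle for the 8 genes on the left and below it for IFI44L, LGALS3BP and IFITM1.

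The large GTPases were divided. GBP3, of the guanylate-binding proteins that interferon gamma strongly induces, had 7.77, 7.79 and 7.76 with menthol and 7.01, 6.87 and 7.0 with vehicle (0.82 ± 0.06, 1.76-fold, adjusted p = 0.000161). GBP2 was at -0.41 ± 0.14 (adjusted p = 0.0587), and its dimmer probeset was at -0.43 ± 0.18 (adjusted p = 0.115 in a fit over probesets). The GBP genes are close copies of each other, so their separate values are uncertain. MX1, a GTPase that traps viral nucleocapsids, rose by 0.35 ± 0.09 (adjusted p = 0.0239), a call that ended without menthol replicate 2 or vehicle replicate 2 (adjusted p = 0.0300 to 0.0766 over the 6 omissions). MX2 was at -0.12 ± 0.12 with overlapping groups.

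The largest decrease was that of IFITM1, a membrane protein that blocks virus entry, the 53rd largest of all 18404 genes. Its values were 6.45, 6.70 and 6.38 log2 intensity with menthol, against 7.60, 7.67 and 7.77 with vehicle, a fall of 1.17 ± 0.10 or 2.25-fold (adjusted p = 0.000189). The closely related IFITM3, outside the 51 genes and named after its values were seen, fell by 0.28 ± 0.06 (adjusted p = 0.012), and near-identical stretches make separate values in this family uncertain. LGALS3BP, a secreted glycoprotein, had 7.51, 7.52 and 7.42 with menthol, against 8.27, 8.19 and 8.33 with vehicle (-0.78 ± 0.07, 1.72-fold lower, adjusted p = 0.000214). IFI44L had 7.18, 7.45 and 7.38 with menthol, against 8.10, 8.07 and 8.09 with vehicle (-0.75 ± 0.08, 1.68-fold lower, adjusted p = 0.000604).

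Smaller changes were seen in the remaining effectors. IFI35 rose by 0.33 ± 0.07 (adjusted p = 0.0114). IFI27 rose by 0.34 ± 0.09 (adjusted p = 0.0206), except without menthol replicate 2 or vehicle replicate 3 (adjusted p = 0.0293 to 0.0687 over the 6 omissions). The dim gene EPSTI1 was at 0.37 ± 0.11 (adjusted p = 0.0403), and over the 6 omissions its call held only when menthol replicate 1 was left out (adjusted p = 0.00912 to 0.122). IFI6, a mitochondrial protein that restrains cell death, was at -0.21 ± 0.06 (adjusted p = 0.0374), a call lost with any 1 array left out (adjusted p = 0.0501 to 0.117). PARP14, which adds ADP-ribose to proteins, was at -0.26 ± 0.08 (adjusted p = 0.0404), and over the 6 omissions its call held only when menthol replicate 2 was left out (adjusted p = 0.0258 to 0.115). The EPSTI1 and PARP14 calls also ended under quantile and cyclic loess normalization, that of PARP14 with array weights, and that of IFI6 under cyclic loess.

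Several genes that commonly mark an interferon response did not pass, and those in this paragraph were named after their values were seen. RSAD2, encoding viperin, which makes a chain-terminating nucleotide, was at -0.03 ± 0.20 (95% interval -0.50 to 0.44), with menthol values of 3.64, 4.46 and 4.39 around the vehicle values of 4.33, 4.17 and 4.07. Its neighbour CMPK2, a mitochondrial nucleotide kinase gene, was at -0.02 ± 0.07 (-0.19 to 0.15). The virion tether BST2 was at -0.09 ± 0.09, XAF1 at 0.07 ± 0.13, IFI44 at -0.23 ± 0.12, PARP9 at 0.12 ± 0.09 and its partner DTX3L at -0.02 ± 0.06. RSAD2, XAF1 and BST2 lay in the dimmest bin, at percentiles 17.5, 23.3 and 24.0 of brightness. IFI44, CMPK2, PARP9 and DTX3L were brighter, at percentiles 43.3, 45.6, 67.8 and 79.8. Whether low signal hid a change was not tested. In all, 20 of the 49 genes did not pass, with changes between -0.41 and 0.15, and in 16 of these the groups overlapped.

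Many of these genes lie beside each other, and neighbours did not always move alike. Among the 49 genes, 14 pairs had at most 2 protein-coding genes between them. The change of 1 gene minus that of the other, taken within each array, did not overlap between menthol and vehicle in 9 of the 14 pairs, against 45.8% of 16677 neighbouring pairs of all measured genes. The widest gap was between HERC6 and HERC5, whose changes of 0.63 and -0.23 differed by 0.85. OAS3 and OAS2 differed by 0.72, with OAS3 lower and OAS2 higher, and IFI44L and IFI44 by 0.52. MX1 and MX2 differed by 0.47, and IFIT2 exceeded IFIT3 by 0.45. For each of these pairs an exact two-sided permutation test of the difference gave p = 0.1, the smallest that 3 against 3 arrays allow. Any pair whose groups do not overlap gives this value, so the test adds nothing to the separation. In SAMD9 and SAMD9L the changes differed by 0.16 with overlapping values (exact permutation p = 0.5).

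**Figure D5:**
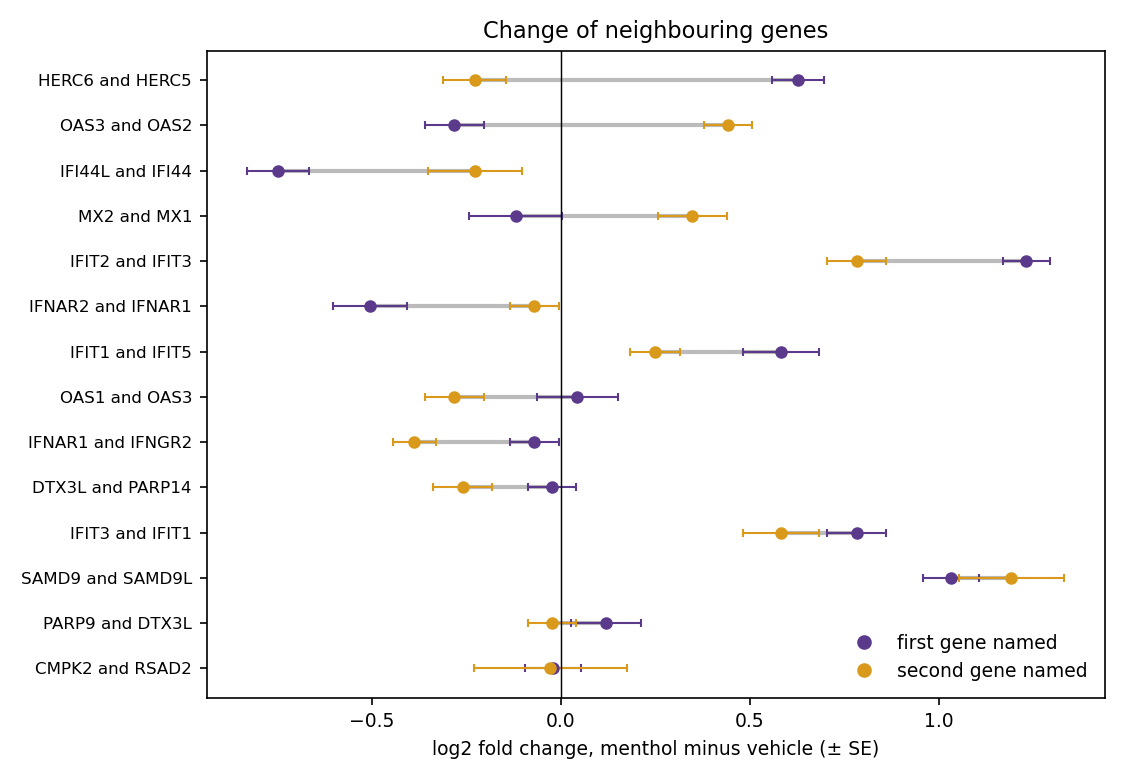
Log2 fold change, menthol minus vehicle (± moderated SE), of both genes in each of the 14 neighbouring pairs, ordered by the gap between them. HERC6 and HERC5, and OAS3 and OAS2, lie on opposite sides of 0, while SAMD9 and SAMD9L lie close together on the right.

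A wider list of 38 measured interferon-induced genes was also divided, with 8 higher (21.1%, against 14.6% of all genes) and 11 lower (28.9%, against 14.5%). DDX60L, a helicase gene, rose by 0.81 ± 0.09 (1.75-fold, adjusted p = 0.000603). GBP5 fell by 0.58 ± 0.10 (adjusted p = 0.00369), the repressor gene IRF2 by 0.54 ± 0.07 (adjusted p = 0.00116) and PML, which organises nuclear bodies, by 0.53 ± 0.07 (adjusted p = 0.00104). Of these, GBP5 was dim, at percentile 20.3 of brightness. The median of the list was 0.02, against 0.03 for all genes. Without menthol replicate 1 or 3 or vehicle replicate 1, 7 of these genes were lower in place of 11, and without vehicle replicate 2 or 3, 6 were.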

How the data were processed

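RNA from 6 PC-3 samples (300 ng total RNA each, per the labels' protocols) was measured on Affymetrix whole-transcript arrays. The authors deposited 1 intensity per probeset and array on a linear scale (32321 probesets, 1.57 to 14835), made with RMA per the submitters' processing notes, so background and scale between arrays had been adjusted before deposit. The intensities were converted to log2. In the platform annotation 19158 probesets named 1 gene, 1388 several and 11775 none, and only the first kind was used. The brightest probeset stood for each of 18404 genes, 637 of which had more than 1.

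The groups were compared over all genes by moderated two-sided tests from limma (version 3.58.1, run under R 4.3.3), with Benjamini-Hochberg adjustment at 0.05, and errors are moderated SE. On simulated data with 200 changed genes among 18404, this fit recovered 90.0% at 1.5-fold and 99.5% at 2-fold, with 9 and 14 false calls. The simulated noise was normal and independent between arrays, and a far smaller share of genes changed than the 29.1% called here. These rates may therefore not hold for the data. The number of arrays limits the precision: the median SD between replicates was 0.10 for menthol and 0.08 for vehicle, and replicate correlations were at least 0.995.

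The genes and lists were chosen with earlier results of these data known. Genes past the threshold were named, at least 1.5-fold ones with every array's value, together with all receptors, transcription factors and sensors and up to 4 genes of each wider list. Neighbouring pairs were chosen after the values were seen, with gene order from RefSeq. Alternatives covered scaling, filters on dim genes, probeset averaging, the prior, array weights, a replicate block, a threshold of 0.01 and leaving out each array. GBP1, STAT2 and some genes of the wider lists were not analysed here.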

Additional observations from a re-analysis of the deposited data

Results flagged for a closer look

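Probesets annotated with several genes were outside the comparisons above, and 2 of them that include genes of the list differed between the groups. The probeset shared by GBP3, GBP1 and the pseudogene GBP1P1 had 8.13, 8.31 and 8.35 log2 intensity with menthol, against 7.40, 7.36 and 7.55 with vehicle, a difference of 0.824. The probeset shared by USP18 and USP41P had 7.44, 7.53 and 7.72 with menthol, against 6.80, 6.85 and 6.89 with vehicle, a difference of 0.7184. In both the groups did not overlap. These differences were not tested, and the values cannot be assigned to 1 gene.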

How the results depend on the processing

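Of the 29 genes that passed, 17 kept their call under every alternative that included them, 12 lost it under at least 1 and 0 changed direction. All 11 genes changed at least 1.5-fold kept their calls wherever they were included, with a highest adjusted p in limma of 0.0295. With each array left out in turn the number higher was 14 to 18 (19 with all arrays), the number lower 6 to 10 (10 with all arrays) and the median log2 fold change -0.00272 to 0.08. These counts do not always hold the same genes. IFI6 lost its call in every omission, and IFNGR1 passed as lower only without menthol replicate 3. At a threshold of 0.01, 11 were higher and 6 lower. With only genes above the median brightness, 5 were at least 1.5-fold higher in place of 8, since IFIH1, IFIT3 and SAMD9L lay below that median and were left out. The numbers in the labels did not pair the arrays: same-numbered arrays correlated at 0.0065, -0.0072 and 0.09. With the replicate block 15 were higher and 8 lower (IRF7, IFIT5, MX1, EPSTI1, PARP14 and IFI6 lost their calls, adjusted p = 0.0507 to 0.0654), 1 ligand (IFNW1) passed as higher (adjusted p = 0.0471), 0 genes of receptor signalling were higher, and 2483 genes of all were higher and 2385 lower.

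In the wider lists, a threshold of 0.01 gave 0 receptor signalling genes higher, 1 sensor adaptor lower and 4 further interferon-induced genes lower. Sensor adaptors lower numbered 5 with the lower quartile of brightness removed or with array weights. Left out in turn, the arrays gave 0 to 1, 1 to 2 and 6 to 8 for these counts. Signs turned only in genes that did not pass. IRF1 was at -0.0125 without menthol replicate 2 (-0.0125 to 0.18 over the omissions), and OAS1 at -0.0183 and -0.0101 without menthol replicate 3 or vehicle replicate 2 (-0.0183 to 0.14). ADAR was at -0.0126 with equal array medians and at -0.0044 and -0.00272 without menthol or vehicle replicate 2 (-0.0044 to 0.0133). DDX60 was at 0.0505 with array weights and at 0.0413, 0.0003, 0.0176 and 0.0495 without menthol replicate 1 or 3 or vehicle replicate 1 or 3 (-0.0756 to 0.0495). IFNE was at -0.0127 with quantile and -0.00747 with cyclic loess normalization. The cause was not tested for any of these.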
